A study of Mus musculus with 4 samples.

Results

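Mitochondrial ribosomal RNA was one of the places where Ago2-bound miRNAs were ligated most often in overloaded plantaris muscle, and a few miRNA families held most of the reads there. The members were all peaks on the mitochondrial chromosome that ended no more than 5 nt past the last base of mt-Rnr2, which is base 2675, with every miRNA listed in them. This region holds the rRNA genes mt-Rnr1 and mt-Rnr2 and the tRNA genes beside and between them. It gave 9 of 20754 peaks in the control library and 8 of 21872 peaks in the mimic library. These few peaks held 19817 of 232408 chimeric reads, or 8.53% (95% interval 8.41 to 8.64), in the control library. In the mimic library they held 19382 of 259207, or 7.48% (7.38 to 7.58). Where a pair of values follows without a library's name, the control stands first. A line of the data is 1 miRNA in 1 peak, and by lines the region was small, with 0.723% and 0.60% of lines. The lines named 201 and 202 miRNAs. All of them were on the plus strand, the strand from which both rRNAs are read.

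The muscles came from male C57BL/6J mice aged 5 months and were taken after 10 days of mechanical overload (MOV). This surgery makes the plantaris grow by removing part of the muscles that share its work. During the surgery the left plantaris received a control lentivirus and the right plantaris one coding for the miR-1a-3p mimic, under a CMV promoter, which is not restricted to muscle fibres, with a GFP reporter. In chimeric eCLIP, Ago2 is crosslinked to RNA and pulled down, and the miRNA is joined to the target fragment under it, so that 1 read names both. The groups were MOV control and MOV mimic with 1 library each, and a matching input library for each that was not analysed here. With 1 library a group there was no test and no replicate check, and all intervals are 95% intervals of counting error only. What differs between them may be the muscle, the animal or the library as much as the treatment, and these cannot be told apart.

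The mitochondrial ribosome is built on a small-subunit rRNA, encoded by mt-Rnr1, and a large-subunit rRNA, encoded by mt-Rnr2. Both are cut from a long transcript at the tRNAs that flank them, with the valine tRNA (TrnV) between them. A miRNA guides Ago2 mainly by pairing of its seed, bases 2 to 8, to a target. Ago2 is mostly found in the cytosol, and miRNAs have been described inside mitochondria, miR-1 of muscle among them. The muscle miRNAs are miR-1a-3p and miR-206-3p, which share a seed, and miR-133a-3p and miR-133b-3p, which share another. The let-7 family is a widely expressed group of near-identical miRNAs known for restraining growth genes.

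Mature sequences (RefSeq) of 8 miRNAs that were frequent in the region are shown first, because their seeds, in capitals, separate the families and because the let-7 members differ outside the seed.
let-7c-5p: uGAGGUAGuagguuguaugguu
let-7d-5p: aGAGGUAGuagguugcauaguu
let-7e-5p: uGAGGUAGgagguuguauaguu
let-7f-5p: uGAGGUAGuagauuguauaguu
let-7i-5p: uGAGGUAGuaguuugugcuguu
miR-206-3p: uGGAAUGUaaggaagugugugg
miR-133b-3p: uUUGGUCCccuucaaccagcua
miR-196a-5p: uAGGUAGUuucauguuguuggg

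The plus strand under the peaks, not the whole region, was searched for seed matches of the 77 miRNAs with a mature sequence. These were letters complementary to bases 2 to 8, or to bases 2 to 7. The 3 places shown next lie in a stretch where the named miRNA was among the 5 with the most reads, and the last of them is a match to bases 2 to 7 alone. Coordinates are in GRCm38 and counted from 1, the letters were read from the NCBIM37 mitochondrial sequence, in which all 37 genes have the same spans, and capitals mark the letters complementary to the miRNA.
let-7c-5p, mt-Rnr1, chrM:638-667, plus strand: taaaccccgctCTACCTCAccatctcttgc
miR-133b-3p, mt-Rnr2, chrM:2346-2375, plus strand: ttttgatcaacGGACCAAgttaccctaggg
miR-133b-3p, TrnV, chrM:1064-1093, plus strand: agaagatttcatGACCAAtgaacactctga

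The peaks formed 6 stretches, since abutting peaks were joined. In mt-Rnr1 a stretch from 580 to 720 held 10683 reads (10481 to 10887) and 9688 reads (9496 to 9883). In mt-Rnr2, stretch A from 1590 to 1741 held 7817 reads (7645 to 7992) and 8697 reads (8515 to 8882). In both libraries these stretches held the highest and the second highest peak of the whole genome. The other 4 stretches were far lower.

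Stretch B of mt-Rnr2 (1823 to 1888) held 635 reads over 66 nt and 120 reads over 14 nt. Stretch C of mt-Rnr2 (2065 to 2117) held 427 reads over 41 nt and 608 reads over 53 nt. The valine tRNA stretch (1040 to 1093) had 268.7 reads in the mimic alone. Stretch D of mt-Rnr2 (2350 to 2371) had 254 reads in the control alone. A stretch without a listed peak is not one without reads, since only called peaks are in the data. Abutting peaks within a stretch shared many of their miRNAs, 19 of 19 for the control peaks 2350 to 2357 and 2358 to 2371, and were not taken as independent. The reads of those 2 peaks had a ratio of 0.590 and their lengths a ratio of 0.571. In mt-Rnr1 the reads did not follow length, since the control peaks 597 to 616 and 617 to 720 had a ratio of reads of 0.0477 and a ratio of lengths of 0.192.

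**Figure D1:**
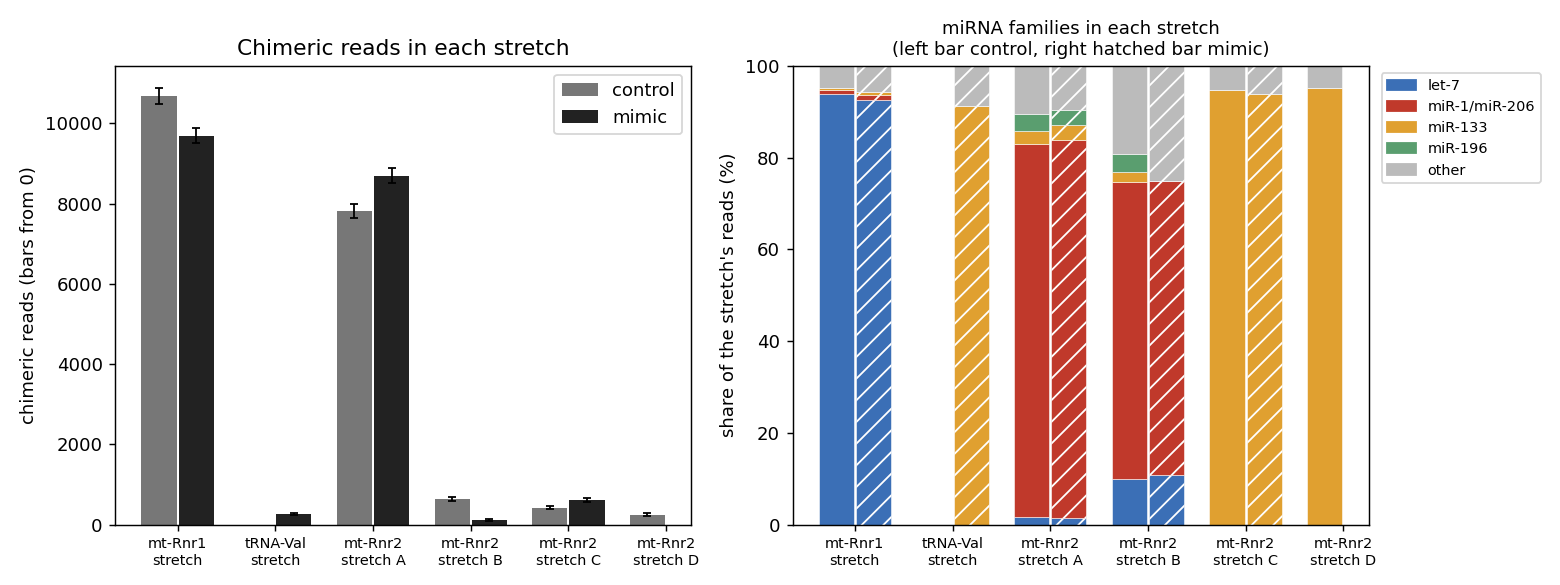
Left, chimeric reads in each of the 6 stretches of the mitochondrial rRNA region by library, with bars from 0 and exact 95% Poisson intervals. Right, the share of each stretch's reads by miRNA family. Only let-7, miR-1/miR-206, miR-133 and miR-196 are drawn apart, where they have at least 10 reads in a stretch. All other reads are counted as other. The mt-Rnr1 stretch is almost all let-7 (93.9% and 92.5%), stretches A and B of mt-Rnr2 are mostly miR-1/miR-206, and the valine tRNA stretch and stretches C and D are over 90% miR-133.

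Each stretch had mostly reads of 1 family, and some stretches shared a family. Let-7 made up 93.9% (93.4 to 94.3) and 92.5% (91.996 to 93.1) of the reads of the mt-Rnr1 stretch, against 12.7% and 11.6% of all reads. The miR-1/miR-206 family made up 81.3% (80.4 to 82.2) and 82.3% (81.5 to 83.1) of stretch A, and 64.8% and 63.9% of stretch B, against 18.4% and 19.4% of all reads. The miR-133 family made up 94.8% (92.3 to 96.7) and 93.9% (91.7 to 95.7) of stretch C, 95.1% of stretch D (control) and 91.2% of the valine tRNA stretch (mimic), against 23.6% and 25.1% of all reads. At the same time miR-133 had only 0.410% and 0.732% of the reads in the mt-Rnr1 stretch. A dominant family was not particular to the rRNA. Among peaks of at least 100 reads, 1 family held 90% or more in 3 of 8 rRNA peaks of each library, and in 21.5% of 261 and 19.7% of 314 other peaks.

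Summed over the region, let-7 gave 51.6% (50.9 to 52.3) and 47.0% (46.3 to 47.7) of the rRNA reads. The miR-1/miR-206 family gave 34.6% (33.9 to 35.3) and 37.9% (37.2 to 38.6). The miR-133 family gave 4.67% (4.38 to 4.98) and 6.07% (5.74 to 6.42), and miR-196 gave 1.59% and 1.46%. The 3 leading families held 90.9% and 91.0% of the reads here.

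Let-7 was prominent in the mt-Rnr1 stretch and not over the rRNA in general. In stretch A of mt-Rnr2 it held 1.66% and 1.52% of reads, 0.131 and 0.130 times its library share, and in stretch B 9.94% and 10.9%. On the other mitochondrial peaks let-7 held 7.59% and 7.499% of reads. That was slightly below its 9.28% and 8.86% on nuclear peaks other than Rn18s-rs5. miR-21a-5p led the other mitochondrial peaks in the control, and miR-1a-3p did in the mimic. The miR-1/miR-206 family held 42.2% and 46.8% of reads on these peaks, more than its share on the rRNA. On the nuclear small-subunit rRNA gene Rn18s-rs5, miRNAs were spread more evenly, and the 3 leading families there held 40.3% and 43.2% of reads. The effective number of miRNAs, the inverse of the summed squared shares, was 8.13 and 6.91 on the mitochondrial rRNA, 4.80 and 4.64 on the other mitochondrial peaks and 18.6 and 16.5 on Rn18s-rs5. The first of these counts several let-7 members apart.

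Set against the whole library, most miRNAs had a smaller share on the mitochondrial rRNA. This follows in part from the large shares of let-7 and miR-1/miR-206 there, which leave less for all others. A total of 96 miRNAs reached 100 reads in both libraries. Of these, 14 (14.6%) had at least 2-fold their library share in both, 73 (76%) were at least 2-fold below it in both, and 9 lay between. The 14 were the 9 let-7 members, miR-98-5p of the same family, miR-1a-3p, miR-196a-5p, miR-196b-5p and miR-126a-5p. The last is an endothelial miRNA, but miR-126a-3p, also endothelial, was below, at 0.199 and 0.247 times its library share. The same count was 8 above (8.33%) and 67 below (69.8%) for the other mitochondrial peaks, and 11 above (11.5%) and 6 below (6.25%) for Rn18s-rs5. Among the 8 above on the other mitochondrial peaks were also miR-1a-3p, miR-196a-5p and miR-126a-5p. The rule of 2-fold is met easily at single peaks. Among lines of at least 10 reads across the genome, 81.6% and 81.3% were at least 2-fold above their library share, and 3.69% and 4.11% were 2-fold below. On the mitochondrial rRNA 38 of 76 such lines (50%) and 35 of 72 (48.6%) were above, and 36.8% and 40.3% were below.

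**Figure D2:**
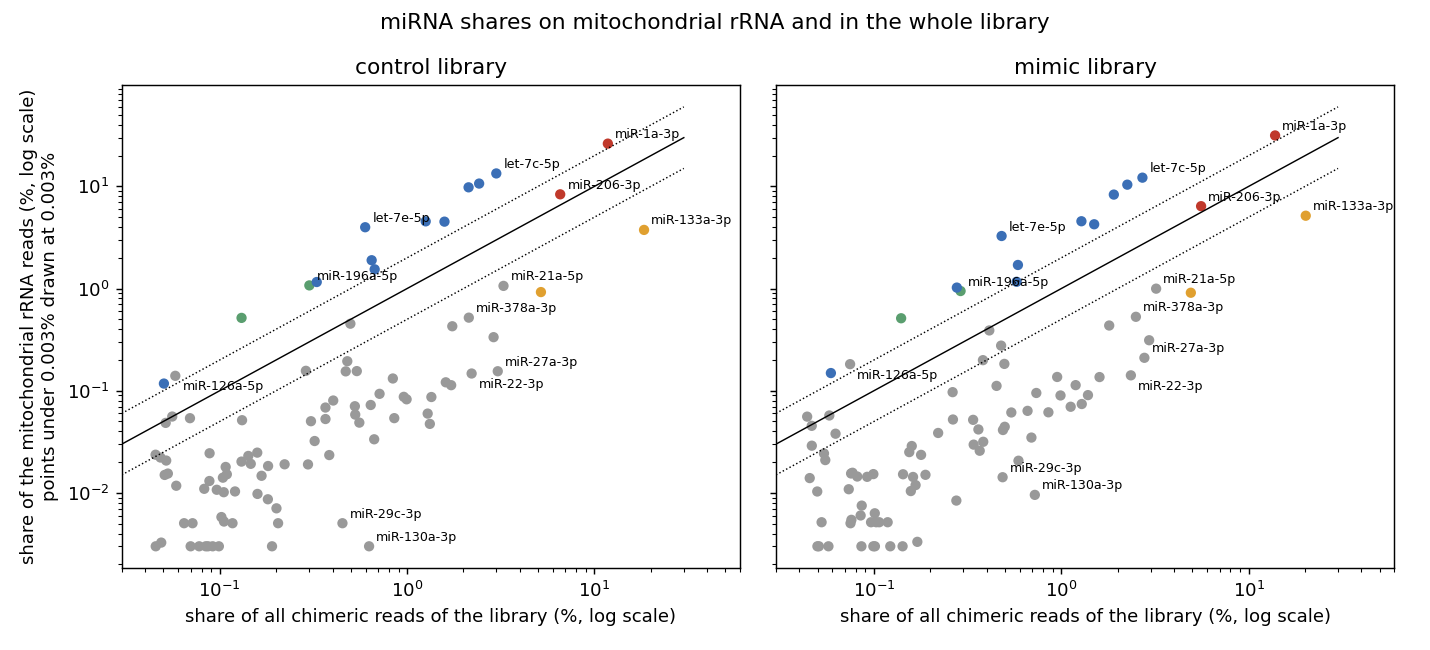
Each point is 1 of the 96 miRNAs, with its share of all chimeric reads on the horizontal axis and its share of the mitochondrial rRNA reads on the vertical axis, both in percent on log scales; the solid line marks equal shares and the dotted lines 2-fold above and below. Let-7 members (blue), miR-196 (green) and miR-1a-3p lie above the upper dotted line in both libraries, and 73 miRNAs lie at or under the lower one.

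The highest ratio of rRNA share to library share belonged to let-7e-5p, with 6.67 (6.21 to 7.13) and 6.81 (6.30 to 7.36). By the control ratio, next came let-7b-5p with 4.599 and 4.36, let-7c-5p with 4.47 and 4.49, let-7a-5p with 4.40 and 4.62, and miR-196b-5p with 3.95 and 3.67. In the mimic let-7k, with 3.69, stood just ahead of miR-196b-5p. For miR-1a-3p the ratio was 2.22 (2.17 to 2.28) and 2.28 (2.23 to 2.33), and for miR-206-3p 1.27 and 1.15.

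The lowest ratios among miRNAs of at least 1000 reads belonged to miR-130a-3p, miR-29c-3p, miR-27b-3p, miR-29a-3p and miR-29b-3p in the control, and in the mimic to miR-130a-3p, miR-29c-3p, miR-29b-3p, miR-199a-5p and miR-27b-3p. The miR-29 members are known for repressing collagens. miR-130a-3p had 0 of 1457 and 1.85 of 1872 reads on the rRNA, and miR-29c-3p had 1 of 1050 and 2.76 of 1260. miR-27a-3p, with 7084 and 7198 reads in all, had 30.7 and 40.7 on the rRNA. miR-133a-3p had the most reads of any miRNA, 42768 and 52291, but its ratio was 0.204 (0.190 to 0.219) and 0.256 (0.241 to 0.272), so its strong peak in stretch C was a small part of its reads.

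At the mt-Rnr1 peak from 617 to 720 the 5 leading miRNAs were all let-7 members. In the control library let-7c-5p had 2375 reads, let-7a-5p 1985, let-7b-5p 1762, let-7d-5p 848 and let-7f-5p 841. In the mimic let-7c-5p had 2123 reads, let-7a-5p 1875, let-7b-5p 1460, let-7d-5p 824 and let-7f-5p 771. The share of let-7c-5p was 24.0% (23.1 to 24.8) and 23.8% (23.0 to 24.8), which is 8.01 (7.73 to 8.29) and 8.80 (8.47 to 9.13) times its library share. The mt-Rnr1 peak was the highest of the whole library for each let-7 member listed, from let-7a-5p to let-7k. For let-7e-5p in the control it held 750 reads, and the next highest peak, in Thbs1, held 38.8. For let-7f-5p in the same library it held 841, and the next, also in Thbs1, 155. Thbs1 encodes a matrix protein.

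The complement of bases 1 to 8 of let-7c-5p, the motif CTACCTCA, runs from 649 to 656 in this stretch. It occurs once on the plus strand of the mitochondrial chromosome and 0 times on the other, and 0.829% of all mitochondrial windows as long as the stretch hold it. Of the 77 miRNAs with a mature sequence, 12 had a 7-nt match in the stretch. The 10 let-7 members among them, miR-98-5p included, were 2-fold or more above their library share there, and of the 65 miRNAs without a match 0 were. The 10 share 1 seed and so 1 match, and they count as 1 case. The other 2, miR-142a-5p and miR-484, had 4.68 and 3.06 reads in the control stretch. Let-7 held 93.9% and 92.5% of this stretch, which left other miRNAs little room to pass 2-fold, with or without a match. In stretch A the 1 miRNA with a 7-nt match was not 2-fold above, and 4 of the 76 without were. In stretch B 0 of 77 had a match, and 6 were above.

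The members of the let-7 family had other proportions on mt-Rnr1 than in their pooled reads outside the rRNA. let-7e-5p was 7.83% (7.31 to 8.37) of the let-7 reads in the mt-Rnr1 stretch and 3.11% (2.87 to 3.37) of those outside the rRNA in the control, and in the mimic 7.04% (6.52 to 7.59) and 2.90% (2.68 to 3.14). In all, 56.6% and 50.7% of the let-7e-5p reads of the library were in this stretch. In the other direction, let-7i-5p was 2.95% (2.63 to 3.30) there and 6.52% (6.17 to 6.88) elsewhere in the control, and 2.46% and 6.04% in the mimic. let-7f-5p was 8.80% (8.26 to 9.37) there and 14.5% (13.97 to 14.97) elsewhere, and 9.12% and 14.5% in the mimic. The intervals did not overlap for any of these in either library, but they do not cover spread between peaks, which was not measured for these members. It was measured for let-7a-5p among let-7a-5p and let-7c-5p reads. Other peaks with at least 50 reads of that pair ran from 24.9% to 63.5% and from 26.9% to 63.1% (5th to 95th percentile). The mt-Rnr1 stretch had 44.6% and 46.5%. The most frequent members, let-7c-5p, let-7a-5p and let-7b-5p, were somewhat more frequent at the site than elsewhere in both libraries. The 10 members with a mature sequence carry the same seed and differ outside it. How a read was named where members are alike was not given in the sources used here. Such naming could differ between the libraries. All miR-199-3p reads, 3230 and 2935, were named miR-199b-3p in the control and miR-199a-3p in the mimic. Neither name was therefore among the 96 miRNAs counted above.

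**Figure D3:**
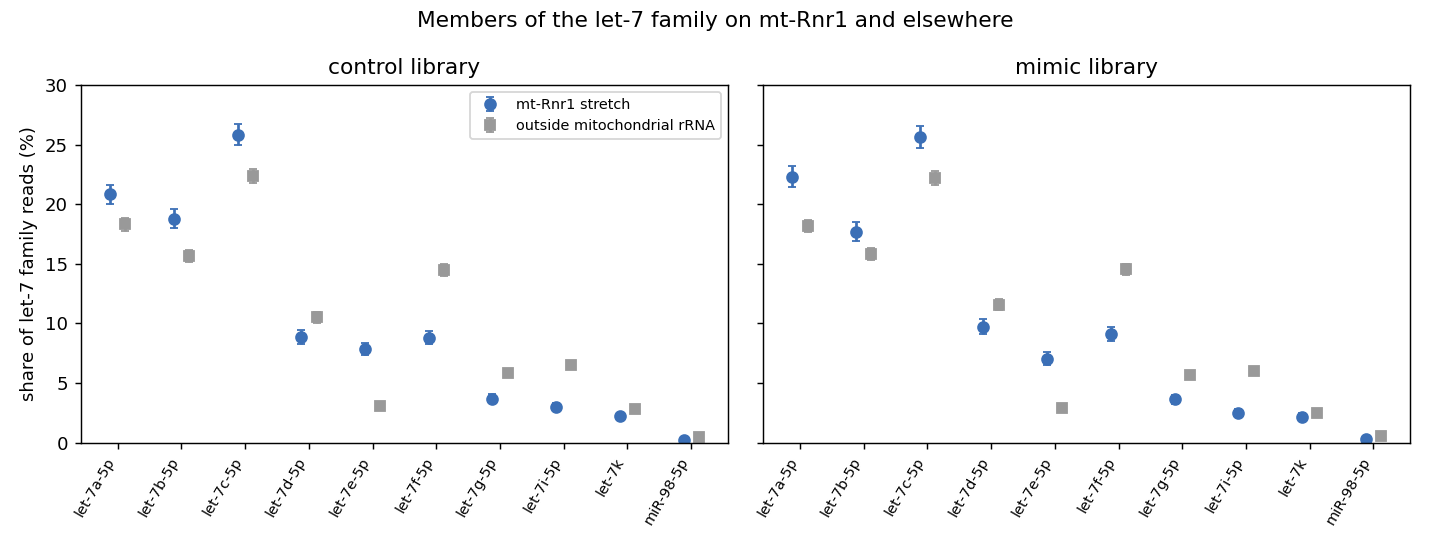
Share of let-7 family reads taken by each member in the mt-Rnr1 stretch (blue circles) and outside the mitochondrial rRNA (grey squares), in percent, with exact 95% intervals, 1 panel a library. let-7e-5p is higher at the site (7.83% against 3.11% in the control), and let-7f-5p, let-7g-5p and let-7i-5p are lower, in both libraries.

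In stretch A of mt-Rnr2, miR-1a-3p led with 5062 and 6016 reads, 64.8% (63.7 to 65.8) and 69.2% (68.2 to 70.1) of the reads. That was 5.49 (5.40 to 5.58) and 4.998 (4.93 to 5.07) times its library share. It was the highest peak of miR-1a-3p in both libraries, above the one in ND1, a mitochondrial gene of respiratory complex I, at 2393 and 3641 reads. miR-206-3p had 1293 and 1146 reads there, 2.52 and 2.36 times its library share. miR-196a-5p, encoded in Hox clusters, had 197 and 171 reads, 8.37 and 6.80 times its library share. miR-21a-5p, known from fibrosis, had 187 and 170 reads, and miR-133a-3p had 162 and 211, both under their library shares. No 7-nt or 6-nt match to the seed of miR-206-3p lay in stretch A or B, and the same holds for miR-196a-5p in both.

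Stretch A and stretch B, both led by the miR-1/miR-206 family, differed in its 2 members. In stretch B of the control, the peak from 1850 to 1888 had 198 reads of miR-206-3p and 40.7 of miR-1a-3p, and the peak from 1823 to 1849 had 145 and 27.9. In the mimic, the peak from 1848 to 1861 had 59.3 and 17.6. Of the reads of both together, miR-206-3p held 83.3% (79.5 to 86.9) and 77.1% (65.6 to 85.5) in stretch B. In stretch A it held 20.3% (19.4 to 21.4) and 16.0% (15.2 to 16.9), and outside the rRNA 37.98% and 30.7%. The intervals of the stretches were far apart in each library. Such spread also occurred elsewhere, since 11 of 89 other peaks with at least 50 reads of the pair were above stretch B in the control, as were 8 of 100 in the mimic. The third and following miRNAs of the control peak from 1850 were let-7b-5p with 19.9 reads, miR-196a-5p with 9.33 and miR-196b-5p with 9.18.

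**Figure D4:**
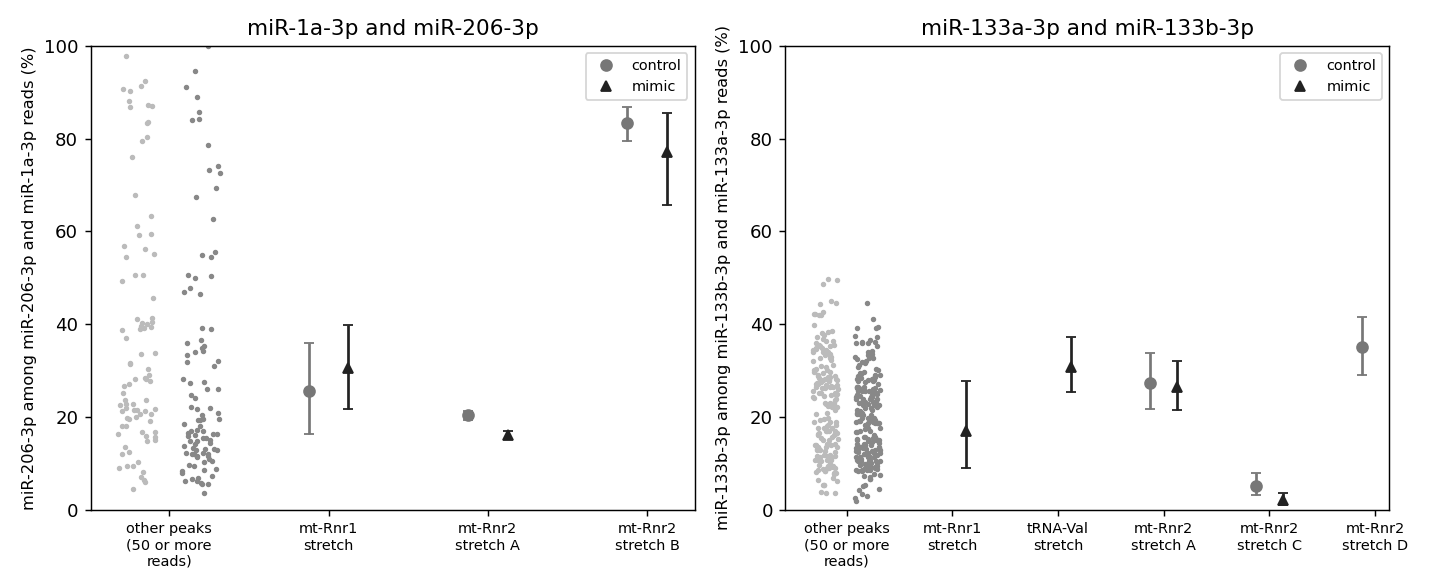
Share of miR-206-3p in the reads of miR-206-3p and miR-1a-3p (left) and of miR-133b-3p in the reads of miR-133b-3p and miR-133a-3p (right), in percent, for other peaks with at least 50 reads of the pair (small points, 1 a peak) and for stretches of the mitochondrial rRNA with exact 95% intervals. Stretch B lies above 77% in both libraries and stretch A near 20.3% and 16.0%, while stretch C has the smallest miR-133b-3p shares of the rRNA stretches, 5.18% and 2.18%.

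The 3 stretches led by miR-133 differed in the same way. In stretch C of mt-Rnr2 miR-133a-3p had 384 and 559 reads, and miR-133b-3p only 21.0 and 12.4, so that miR-133b-3p was 5.18% (3.24 to 7.82) and 2.18% (1.09 to 3.64) of the pair. In stretch D of the control it was 35.2% (29.1 to 41.5), and in the valine tRNA stretch of the mimic 30.8% (25.3 to 37.2). Outside the rRNA it was 22.01% and 19.7%. Of other peaks with at least 50 reads of the pair, 3 of 189 and 1 of 211 had a smaller miR-133b-3p share than stretch C. How a read was given to 1 or the other of these alike miRNAs was not given in the sources used here. Whether these shares depend on naming was not tested. At the control peak 2358 to 2371, miR-133a-3p had 98.6 reads and miR-133b-3p 53.4, and at the mimic peaks 1040 to 1068 and 1069 to 1093, miR-133a-3p had 88.0 and 81.6 and miR-133b-3p 37.1 and 38.4. The other 3 leading miRNAs of stretch C in the control, miR-26a-5p, miR-1a-3p and miR-378a-3p, had under 4 reads each.

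The letters that could pair with the seed of miR-133b-3p were compared among these stretches. miR-133a-3p shares this seed, so such letters cannot separate the 2 members and do not bear on their shares. Stretch D held GGACCAA, the complement of its bases 2 to 8, at 2357 to 2363, a motif found 1 time on the plus strand of the mitochondrial chromosome and 2 times on the other. Of mitochondrial windows as long as stretch D, 0.0983% hold it. The valine tRNA stretch held GACCAA, the complement of bases 2 to 7, at 1076 to 1081, and 1.51% of windows of that length hold it. This 6-nt motif lies within GGACCAA. Stretch C held neither. A match is a description of letters, and its absence says nothing of how Ago2 was placed.

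The mimic library had 1.12 (1.11 to 1.12) times the reads of the control library in all, so a ratio near that value is no change relative to depth. Peaks were called separately in each library, so every ratio of summed reads also moves with the length called. On the mitochondrial rRNA the ratio was 0.978 (0.959 to 0.998), over 421 and 414 nt. On the other mitochondrial peaks it was 1.29 (1.26 to 1.32) over 2043 and 2262 nt, and on Rn18s-rs5 1.07 (1.04 to 1.09) over 562 and 642 nt. The mt-Rnr1 stretch, with 141 nt covered in both libraries, had 0.907 (0.882 to 0.932) times the reads in the mimic, and stretch A, over 151 and 152 nt, had 1.11 (1.08 to 1.15), close to the ratio of the library totals. Stretch C had 1.42 (1.26 to 1.62), but its peaks covered 41 nt and 53 nt, and per nt it held 10.4 and 11.5 reads, a ratio of 1.10, near that of the library totals. Stretch B had a ratio of 0.189 (0.154 to 0.230), but its peaks covered 66 nt and 14 nt. Per nt covered, the values were 9.62 and 8.59 reads.

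By miRNA, miR-1a-3p, the miRNA that the mimic copies, had a ratio of 1.18 (1.13 to 1.22) on the rRNA and 1.34 (1.32 to 1.36) in the rest of the library. In stretch A its ratio was 1.19 (1.14 to 1.23). miR-206-3p had 0.749 (0.695 to 0.807) on the rRNA and 0.971 (0.948 to 0.994) elsewhere. Much of the first value came from stretch B, where its reads were 343 over 66 nt and 59.3 over 14 nt, and in stretch A the ratio was 0.886 (0.818 to 0.960). The let-7 members with over 100 reads had ratios from 0.739 for let-7i-5p to 0.981 for let-7d-5p on the rRNA, all below the same member's ratio elsewhere. The let-7 family together had 0.891 (0.866 to 0.917) on the rRNA and 1.09 (1.07 to 1.11) elsewhere. miR-133a-3p had 1.35 (1.22 to 1.48) on the rRNA and 1.22 (1.205 to 1.24) elsewhere, but the first value sums different regions, with 169.6 reads in the valine tRNA stretch of the mimic alone and 157 in stretch D of the control alone. In stretch C miR-133a-3p had 9.36 and 10.5 reads per nt covered, a ratio of 1.13. After division by the library totals, 4 of 59 rRNA lines with at least 10 reads in both libraries were past 2-fold, 6.78%, against 8.23% of all 1933 such lines. Of those 4, 2 lay in stretch B.

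**Figure D5:**
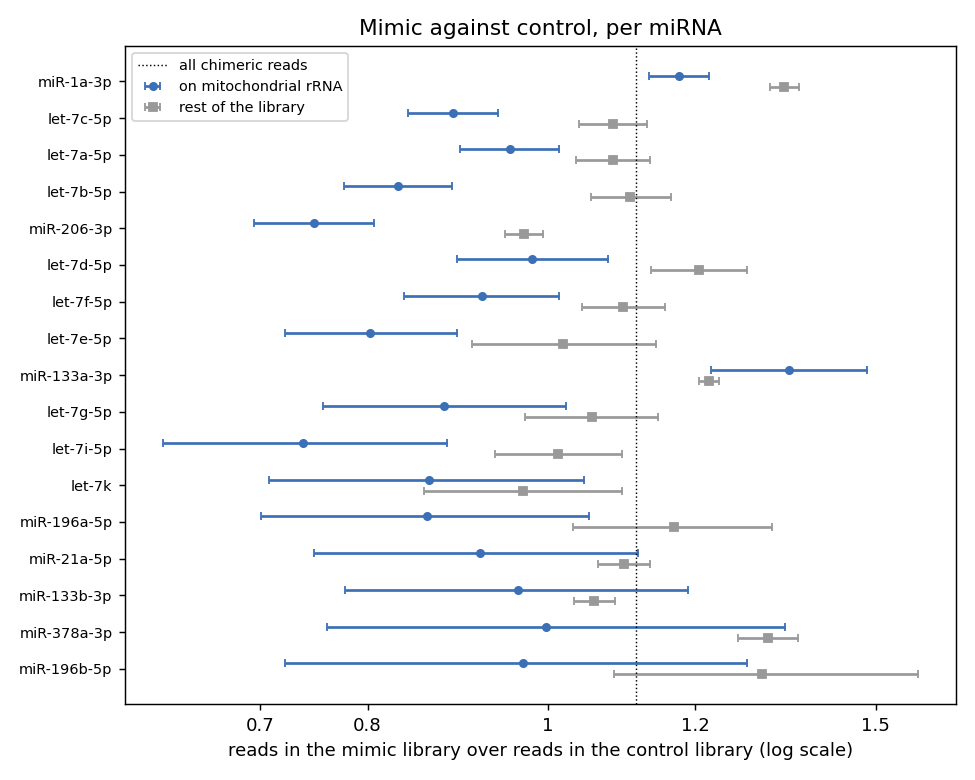
Ratio of reads in the mimic library to reads in the control library, on a log scale, for each miRNA with at least 100 reads on the mitochondrial rRNA in either library, on the rRNA (blue) and in the rest of the library (grey), with exact 95% conditional binomial intervals; the dotted line is the ratio of all chimeric reads, 1.12. Every let-7 member sits below its own value elsewhere, and miR-1a-3p (1.18 against 1.34) does too, whereas miR-133a-3p sits above it with stretches called in 1 library included.

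The muscle miRNA list (8 listed, 5 and 6 found on the rRNA) took 39.3% (38.6 to 39.99) and 44.0% (43.3 to 44.7) of the rRNA reads, against 42.3% and 44.9% of all reads, so a muscle share like that of the whole library was made of very unequal members. Of the 8, 7 had reads in both libraries. In whole muscle, fewer cells of a type and less RNA per cell cannot be told apart. miR-486b-5p had 9.97 and 5.01 reads. Of 8 miRNAs described in mitochondria by other work, 8 in the control and 7 in the mimic were on the rRNA, with 27.9% and 33.2% of its reads against 17.5% and 19.8% of all reads. miR-1a-3p alone gave 5197 of the 5530 reads in the control. The rest were few, such as miR-21a-5p with 210 reads, miR-378a-3p with 103 and miR-34a-5p with 4.11 in the control.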

How the data were processed

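Chimeric eCLIP-seq was measured in MOV control and MOV mimic plantaris muscle, 1 library each; the 2 input libraries were left out. Each deposited value was an estimated count (expected count) of the chimeric reads that joined 1 miRNA to 1 peak, mostly a fraction, not scaled to depth by the authors. Per the labels' processing notes, the authors used UMI-tools 1.1.1, cutadapt 3.2, STAR 2.7.7a, Bowtie 1.2.3 and HOMER 4.11 with the mm10 build. The methods name mm9, CLIPper peaks and a filter on repetitive elements. How that filter treated rRNA, how reads with nuclear copies of mitochondrial sequence were placed, and how the name of a miRNA was chosen among alike ones were not given in the sources used here. The methods also describe an amplification for miR-1, so shares of miRNAs describe these libraries and not their abundance in muscle. The methods give 1 sample a group; whether both muscles came from the same animal was not given in the sources used here.

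Peaks were selected by position, shares and ratios were computed in Python 3.11.15 (pandas 2.3.3, scipy 1.17.1), with exact Clopper-Pearson (shares), Poisson (reads) and conditional binomial (ratios) intervals on reads rounded to whole numbers; the interval calculations were tested on simulated data. The library share was taken as fixed. No test between groups was possible. Depth was 232408 and 259207 chimeric reads. Named miRNAs were the 5 leading at each of the 6 highest peaks, the 5 highest and 5 lowest ratios among miRNAs of at least 100 reads (lowest at least 1000), the let-7 family and the muscle and mitochondria lists. The members and lists were chosen with earlier results of these data known. Seed letters came from RefSeq mature miRNAs. Of 96 miRNAs, 77 matched. miR-1a-3p and miR-133a-3p did not and were not searched, while miR-206-3p and miR-133b-3p, which share their seeds, were. Alternatives covered read minimums, other reference shares, pooled families, scaling by totals, joined peaks and match length.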

Additional observations from a re-analysis of the deposited data

How the results depend on the processing

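No paired analysis was possible because the control and the mimic are single libraries. A value was taken as moved where it left the 95% counting interval of the reported value, and such intervals are narrow at these depths. Of 195 alternatives, 84 stayed within it, or within 1.5 times for counts, 106 moved and 5 turned direction. The cause was not tested where a value moved, except where the alternative itself sets it.

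The share of reads on the rRNA (control, mimic) was 9.45% and 8.27% with lines of at least 1 read, 12.0482% and 10.4% with at least 3 reads, and 0.723% and 0.60% by lines instead of reads. Without the valine tRNA peaks the mimic share was 7.37%. The ratio to the library share stayed above 1 in each alternative for the leading miRNA of the 3 main peaks. For let-7c-5p on mt-Rnr1 it was 11.8 and 12.3 against the rest of the library, 11.9673 and 12.4 without the mitochondrial chromosome, 10.0053 and 10.8 against other mitochondrial peaks, and 7.501 and 8.08 as a family. With at least 3 reads it was 7.43 in the control. For miR-1a-3p in stretch A it was 6.20 and 5.57 against the rest of the library, 6.93 and 6.33 without the mitochondrial chromosome, 2.23 and 2.03 against other mitochondrial peaks, 5.14 and 4.67 with at least 1 read, 4.61 and 4.16 with at least 3 reads, and 4.43 and 4.24 as a family. For miR-133a-3p in stretch C it was 4.55 and 4.297, 4.30 and 4.04, 97.4 and 78.5, 4.599 and 4.31, 4.09 and 3.87, and 4.02 and 3.74, in the same order. miR-133b-3p in stretch C was below its library share in the mimic and turned to 5.26 times against other mitochondrial peaks, where miR-133 is rare, and 3.74 as a family, which miR-133a-3p leads.

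The number of miRNAs above their library share was 3 of 75 with families pooled and 8 of 96 at 3-fold. Against other mitochondrial peaks, 20 of 96 miRNAs were above and 24 below. The number below was 45 of 61 with lines of at least 3 reads and 35 of 50 among miRNAs of at least 500 reads, where fewer miRNAs were counted. The ratio of mimic to control reads, divided by library totals or by totals outside the mitochondrial chromosome, was 0.805 and 0.803 on mt-Rnr1 and 0.998 and 0.995 in stretch A, which turned from above to below 1. For let-7c-5p it was 0.797 and 0.795, for miR-1a-3p 1.05429 and 1.05142, for miR-206-3p 0.671 and 0.6695, and for miR-133a-3p 1.21 and 1.20452. As a family miR-1a-3p and miR-206-3p had 1.07, a turn for miR-206-3p. The highest peak of stretch B had 0.246 with at least 3 reads. With abutting peaks joined and with reads per nt, both chosen after seeing the data, stretch B had 0.189 and 0.892, and stretch C had 1.10183 per nt. Minus-strand peaks could not be given a value because the region has none. Stretches with a peak in 1 library have no ratio. Depth limits stretches B, C and D and the valine tRNA stretch most, where single miRNAs other than the leading pair had few reads.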

Other observations

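Markers of other cell types were few on the mitochondrial rRNA. The leukocyte list had 0.518% and 0.464% of rRNA reads (control first), led by miR-142a-3p with 89.8 and 75.4 reads, against 0.656% and 0.548% of all reads. The endothelial list had 0.220% and 0.293%, against 0.461% and 0.526% of all reads, and most of it was miR-126a-5p with 27.7 and 35.3 reads. The smooth muscle list had 0.199% and 0.291%, led by miR-143-3p. The fibroblast list had 0.440% and 0.466%, against 2.38% and 2.12% of all reads. The red cell list had 10.1 and 4.59 reads and the neuron list 10.2 and 2.29. The liver miRNA miR-122-5p had 0 reads in both libraries, which still allows a share of up to 0.0186% and 0.0190% (upper bound of the exact interval).

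miR-126a-5p and miR-142a-3p, markers of endothelium and leukocytes, were also not evenly placed within the region. In stretch A miR-142a-3p had 65.2 and 54.8 reads, 1.67 and 1.53 times its library share, and miR-126a-5p had 12.1 and 21.5 reads, 2.66 and 3.32 times its library share. In stretch B, on few reads, miR-142a-3p had 14.7 and 2.59 reads, 4.64 (2.67 to 7.76) and 5.21 (1.26 to 17.3) times its library share, and miR-126a-5p had 8.85 and 2.48 reads, 24.1 (11.2 to 46.2) and 27.7 (2.71 to 78.98) times. In the mt-Rnr1 stretch miR-142a-3p had 9.65 and 12.7 reads, 0.181 and 0.318 times its library share, and miR-126a-5p had 5.64 and 8.79 reads, 0.912 and 1.22 times. Also in the mt-Rnr1 stretch, miR-24-3p had 62.7 and 66.6 reads and miR-143-3p 28.6 and 37.6, all under their library shares. The other endothelial miRNA, miR-126a-3p, was at 0.127 and 0.254 times its library share in stretch A. In the mt-Rnr1 stretch miR-126a-3p was at 0.276 and 0.253 times.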
